A study of Mus musculus with 24 samples.

Results

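Sterol biosynthesis genes encode the enzymes that turn acetyl-CoA into cholesterol. The 8 enzymes described here, Idi2, Idi1, Hmgcs1, Sqle, Fdps, Fdft1, Lss and Cyp51, were taken by their names in the scanner files, which gave 17 of 41174 probes and 8 of 28104 genes. They were picked with values of these arrays in view, Idi2 for its difference from the rest of the pathway, so their differences between groups are given as a description. No p-value is printed for them, and the calls counted further on are not read as a result. All 8 passed the filter on dim probes, and Idi2 was well above background on all arrays of 5 of the 8 groups.

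In the mevalonate pathway Hmgcs1 condenses acetyl units into HMG-CoA, mevalonate is made from it, and after phosphorylation and decarboxylation Idi1 or Idi2 interconverts the isoprene units that Fdps joins into farnesyl diphosphate. Fdft1 joins these into squalene, Sqle oxidises squalene, Lss closes the rings to lanosterol, and Cyp51 takes off a methyl group on the way to cholesterol. The genes are known as common targets of SREBP2, a transcription factor released when membranes run short of sterol, and in stratified epithelium they serve the lipids of the barrier. Idi1 is the widely used isomerase, and in humans Idi2 is known as a form found in skeletal muscle.

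RNA of the oesophagus (Cy5) was set against a reference RNA from 11 mouse cell lines (Cy3) on 24 arrays, and every value is a log2 ratio to that reference. The mice were male, 12 weeks old and C57BL/6J per the labels, either wild type or Nrf2-/-, that is, without the transcription factor encoded by Nfe2l2. In each genotype there was a group without reflux and 1 group each with gastric, duodenal and mixed reflux that had lasted 4 weeks, and each of the 8 groups had 3 arrays. The tissue is labelled whole esophagus in 7 groups and esophageal epithelium in Nrf2-null mixed reflux, although other labels call all groups epithelium. The study's stated comparison was between the genotypes in each condition, and whether the arrays of a group came from separate mice is known only from the label of biological replicates.

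Several arrays stood apart. The 3 arrays of Nrf2-null mixed reflux correlated at 0.996 to 0.997 and were counted as 1 sample, so 22 samples entered the fit. Nrf2-null gastric reflux replicate 2, labelled male, had an Xist ratio of -1.78, against -7.20 to -4.67 on the other arrays. Replicate 1 of Nrf2-null gastric reflux and replicate 2 of Nrf2-null duodenal reflux had low median Cy5 intensities of 88.3 and 85.3, as had replicate 2 of the wild type without reflux at 81.8. On slide 1, which held replicates 1 and 2 of the wild type without reflux, the scanner software marked at least 11.8% of spots as outliers, so that in this group Hmgcs1, Fdps, Fdft1 and Sqle rested on replicate 3 alone and Idi1 on replicates 2 and 3. Scan days also differed: replicates 1 and 2 of the wild type without reflux were read on day 1, its replicate 3, wild-type gastric reflux and replicates 1 and 2 of the Nrf2-null mice without reflux on day 2, and the rest on day 3. Nfe2l2 lay at 1.45 to 2.31 in the wild type and -3.81 to -2.83 in Nrf2-null arrays.

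Upstream sequence is shown for both isomerases and for Hmgcs1, because the isomerases lie side by side and went apart on these arrays. Idi1 and Idi2 are neighbours on chromosome 13, with 4 annotated genes between them, of which 0 are protein-coding. RefSeq (GRCm38.p6) promoter windows, from 250 bases before to 50 after the start of transcription, were at hand for 5 of the 8 enzymes, not for Sqle, Fdps and Fdft1. The 250 bases before the start follow 5′ to 3′ along the gene, all on the plus strand, with matches to the CCAAT box (CCAAT, or ATTGG on the other strand) and to the sterol regulatory element letters TCACNCCAC in capitals. They span chr13:8952613-8952862 for Idi2, chr13:8885356-8885605 for Idi1 and chr13:119690101-119690350 for Hmgcs1.
Idi2: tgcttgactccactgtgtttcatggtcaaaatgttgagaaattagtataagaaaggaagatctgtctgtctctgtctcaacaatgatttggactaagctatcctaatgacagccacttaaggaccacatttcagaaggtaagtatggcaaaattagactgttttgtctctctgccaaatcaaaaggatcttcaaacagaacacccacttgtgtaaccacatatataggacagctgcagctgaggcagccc
Idi1: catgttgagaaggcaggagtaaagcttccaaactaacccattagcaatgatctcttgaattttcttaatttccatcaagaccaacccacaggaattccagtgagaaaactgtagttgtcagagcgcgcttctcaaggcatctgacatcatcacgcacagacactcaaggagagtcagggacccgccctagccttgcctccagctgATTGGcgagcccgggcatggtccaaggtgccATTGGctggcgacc
Hmgcs1: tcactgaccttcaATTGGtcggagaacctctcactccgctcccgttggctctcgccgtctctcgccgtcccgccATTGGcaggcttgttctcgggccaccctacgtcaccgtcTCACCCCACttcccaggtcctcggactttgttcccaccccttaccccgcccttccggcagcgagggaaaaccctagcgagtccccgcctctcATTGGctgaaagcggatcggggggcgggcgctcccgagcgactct
The Idi2 window held no match to any of 3 motifs searched on both strands, the third being the antioxidant response element letters TGACNNNGC. The Idi1 window held 2 CCAAT boxes, starting 45 and 14 bases before the start of transcription. In Hmgcs1 there were 4 CCAAT boxes in the whole window, 3 of them within the printed bases, and 1 sterol regulatory element 137 bases before the start. Lss and Cyp51 each held 1 CCAAT box and neither of the other motifs. Of all 32851 promoter windows, 37.4% held a CCAAT box, 1.24% the sterol regulatory element letters and 12.4% the antioxidant response element letters. A match is a string of letters and not a measured site, and no match says only that these letters were not in the window.

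The probes differ in what they report, so those that cross an exon junction are shown for 4 enzymes, as the array design gives them, in build mm9. Each holds 60 bases. The Idi1 probe spans chr13:8886802-8887206 on the plus strand, and those on the minus strand span chr3:88898812-88898952 for Fdps, chr14:63765769-63770009 for Fdft1 and chr5:4092033-4092439 for Cyp51. For Fdps and Fdft1 the probe shown is the brightest, whose values stand for the gene. For Idi1 and Cyp51 another, brighter probe stands for the gene.
Idi1: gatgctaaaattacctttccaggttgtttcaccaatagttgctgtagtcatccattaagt
Fdps: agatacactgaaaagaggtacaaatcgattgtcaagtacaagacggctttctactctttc
Fdft1: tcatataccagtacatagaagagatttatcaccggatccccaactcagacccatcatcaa
Cyp51: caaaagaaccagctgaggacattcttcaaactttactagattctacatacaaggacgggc
Idi2 had a single probe, at chr13:8959814-8959872 on the plus strand, which the design ties to a cDNA clone described as weakly similar to the type 2 isomerase and names 4833405L16Rik in the slide 1 files. Its longest run of bases shared with either Idi1 probe was 7 of 60. Whether it lies in an exon of Idi2 was not analysed here.

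Idi2 was high in 3 of the 8 groups, duodenal reflux of both genotypes and mixed reflux of Nrf2-null mice. In the others it was near the level of the reference, which was itself dim on this probe. The ratios were -0.17, -0.10 and 0.06 in the wild type without reflux, 0.26, 0.10 and 0.36 with gastric reflux, 3.53, 3.76 and 3.71 with duodenal reflux and 0.41, 1.59 and 0.20 with mixed reflux. In Nrf2-null mice they were 0.31, 0.10 and 0.35 without reflux, 0.16, 0.56 and 0.19 with gastric reflux, 2.17, 2.74 and 2.38 with duodenal reflux, and 4.23, 4.07 and 4.16 with mixed reflux. Wild-type duodenal, Nrf2-null duodenal and Nrf2-null mixed reflux did not overlap with each other or with the remaining 5 groups. Among those 5, wild-type mixed reflux stood highest through replicate 2 alone, and its other arrays overlapped with the Nrf2-null groups without reflux and with gastric reflux.

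From highest to lowest, the group means of Idi2 were 4.15 in Nrf2-null mixed reflux, 3.67 ± 0.12 (SD, n = 3) in wild-type duodenal reflux, 2.43 ± 0.29 in Nrf2-null duodenal reflux and 0.73 ± 0.75 in wild-type mixed reflux. Nrf2-null gastric reflux (0.30 ± 0.22), Nrf2-null without reflux (0.25 ± 0.13) and wild-type gastric reflux (0.24 ± 0.13) followed and did not differ beyond their spread. The wild type without reflux was lowest at -0.07 ± 0.12, and there the probe was well above background on 0 of 3 arrays. It was so on 2 of 3 arrays in wild-type gastric reflux and 1 of 3 in Nrf2-null mice without reflux. The Cy3 level of the probe kept between 6.32 and 6.91 (log2 intensity) on all 24 arrays, while the Cy5 level went from 6.64 to 11.04, so the ratio differed through the oesophageal channel. Where the Cy5 signal was not well above background its level was 6.64 to 7.03, so the reference was dim too. A ratio near 0 thus sets 2 dim signals against each other. In whole tissue, fewer cells of a type and less RNA per cell cannot be told apart.

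**Figure D1:**
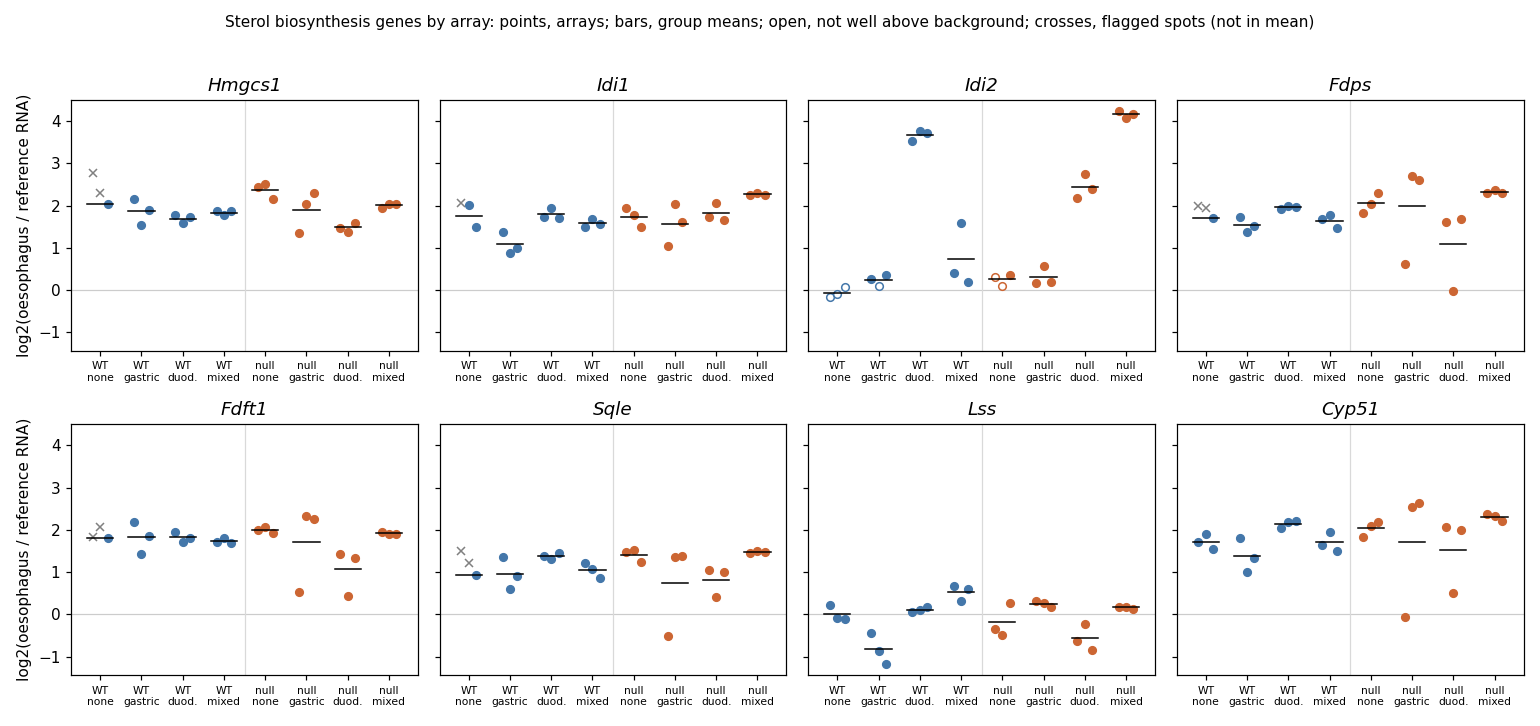
Log2 ratio of oesophageal to reference RNA (y axis) for each of the 8 enzymes in the 8 groups (x axis; null, Nrf2-null; duod., duodenal), 1 point per array, open where not well above background, crosses for outlier spots left out, bars at group means. Idi2 stands at 2.17 to 4.23 in duodenal reflux and Nrf2-null mixed reflux and at most 1.59 elsewhere; Fdps, Fdft1, Sqle and Cyp51 each have a low array in Nrf2-null gastric and duodenal reflux.

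Fitted differences for Idi2, with the standard error of a model over all samples, were 3.73 ± 0.26 for duodenal reflux against none in the wild type and 2.18 ± 0.26 in Nrf2-null mice. As a fold of the Cy5 level the first was at least 12.5-fold, because the dimmer group gave only a bound. Mixed reflux against none gave 3.90 ± 0.36 in Nrf2-null mice and 0.80 ± 0.26 in the wild type, which was 0.37 without wild-type replicate 2. As the same ratio, mixed reflux in the wild type was 1.66-fold against that dim group. Gastric reflux gave 0.31 ± 0.26 in the wild type, a ratio of 1.20-fold against the dim group. It gave 0.05 ± 0.26 in Nrf2-null mice, where the probe was mostly at background without reflux. These comparisons share the arrays without reflux within each genotype, and those of Nrf2-null mixed reflux set 1 sample against 3.

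Between genotypes, Idi2 was lower in Nrf2-null mice with duodenal reflux (-1.23 ± 0.26) and higher with mixed reflux (3.42 ± 0.36). With mixed reflux the Nrf2-null mice count as 1 sample. Their tissue label, esophageal epithelium, also differs from the whole esophagus of the wild type, so label and genotype cannot be told apart there. Without reflux the difference was 0.32 ± 0.26, a ratio of mean Cy5 levels of 1.155-fold. There the probe was well above background on 0 of 3 wild-type and 1 of 3 Nrf2-null arrays. With gastric reflux the difference was 0.06 ± 0.26. All arrays of the 2 large differences, with duodenal and with mixed reflux, were read on scan day 3, so a fit within that day had to return the same values. The genotypes lay on different slides there, 4 and 5 in the wild type and 6 and 7 in Nrf2-null mice. Duodenal reflux against none in Nrf2-null mice, which on that day has 1 array without reflux, was 2.08 within it. Duodenal reflux against none in the wild type spans scan days, and with the day as a block it was 3.46. Without the array labelled male that carried Xist, Idi2 in Nrf2-null gastric reflux against wild type was -0.06. The authors' deposited values, read as log2, gave 4.93 and 3.22 for duodenal reflux in the wild type and Nrf2-null mice, -0.97 for the genotype difference with duodenal reflux and 3.57 with mixed reflux.

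**Figure D2:**
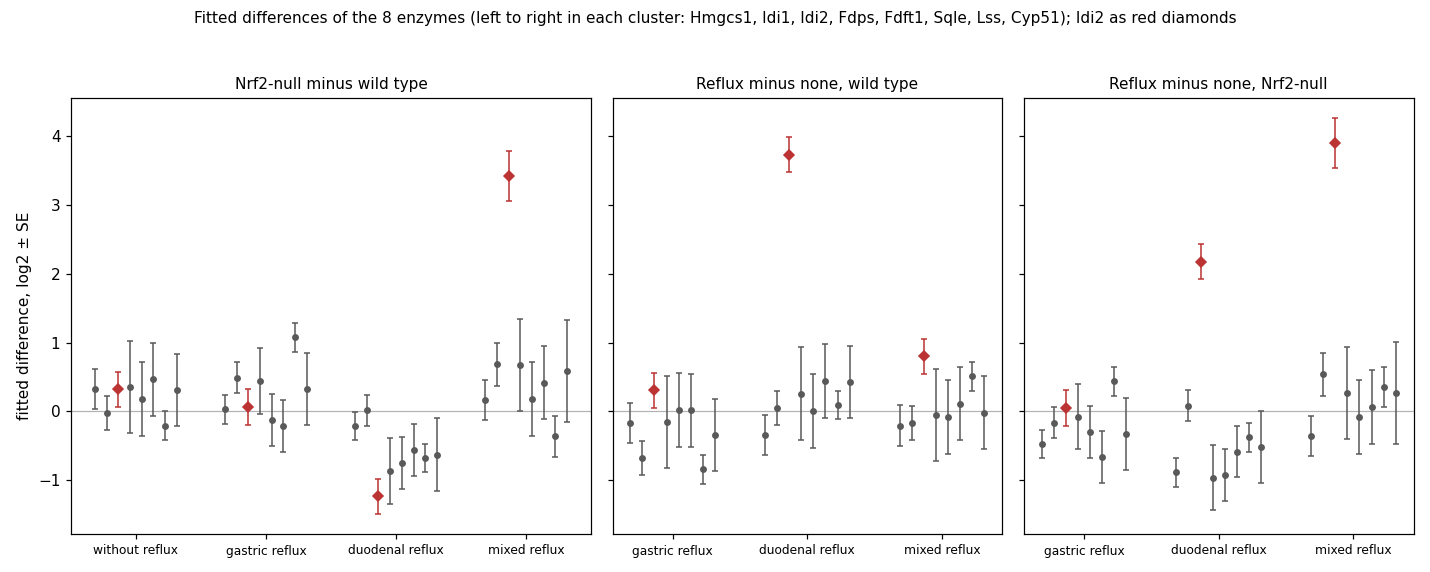
Fitted difference ± SE on the log2 scale (y axis) for the 8 enzymes in each comparison (x axis), Idi2 as red diamonds and the others as grey points. The other 7 lie between -0.96 and 1.08 in all 10 comparisons, whereas Idi2 reaches 3.90.

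Hmgcs1, the first of the 8 enzymes in the pathway, was highest in Nrf2-null mice without reflux, at 2.44, 2.50 and 2.15, and lowest in Nrf2-null duodenal reflux, at 1.48, 1.38 and 1.59. These groups did not overlap, and the fitted difference was -0.88 ± 0.21. In wild-type duodenal reflux the ratios were 1.77, 1.58 and 1.73, all below the single measured array without reflux at 2.04, with a difference of -0.35 ± 0.29. In Nrf2-null mixed reflux they were 1.94, 2.03 and 2.04. These are values of the brightest Hmgcs1 probe, and its second RefSeq probe ordered the wild-type groups the other way, with means of 1.83 ± 0.23 (SD, n = 3) in duodenal reflux and 1.20 ± 0.38 without reflux. On that probe Nrf2-null duodenal reflux was again lowest, at 0.47 ± 0.90, and Nrf2-null mixed reflux had the highest mean, 2.40. With the flagged spots of slide 1 kept, the mean without reflux in the wild type was 2.37 ± 0.37 (SD, n = 3) and the duodenal difference -0.68.

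Idi1, which catalyses the same step as Idi2, had ratios between 0.87 and 2.31 on all arrays by its brightest probe. Its other probe went from -0.87 (Nrf2-null gastric replicate 1) to 2.32, with -0.13 in Nrf2-null duodenal replicate 2, and its mean in Nrf2-null duodenal reflux was 0.74 ± 0.77 (SD, n = 3), against 1.44 ± 0.26 without reflux. The values that follow are of the brightest probe. Its ratios were 1.74, 1.95 and 1.71 in wild-type duodenal reflux, against 2.01 and 1.49 on the arrays without reflux that measured it, a difference of 0.05 ± 0.25. Nrf2-null duodenal reflux (1.73, 2.05 and 1.66) overlapped with Nrf2-null mice without reflux (1.93, 1.77 and 1.49), and their difference was 0.09 ± 0.22. The highest level was in Nrf2-null mixed reflux, at 2.26, 2.31 and 2.24, which was 0.54 ± 0.31 above no reflux and 0.69 ± 0.31 above the wild type with mixed reflux. The lowest was in wild-type gastric reflux, at 1.37, 0.87 and 1.00, which was 0.67 ± 0.25 lower than without reflux. The spread between the lowest and the highest group mean of these probes was 1.19 for Idi1 and 4.22 for Idi2.

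On the probes that stood for the genes, Fdps, Fdft1, Sqle and Cyp51 shared 1 pattern. They differed little in the wild type and spread widely in Nrf2-null gastric and duodenal reflux, through single arrays. The grouping depends on the probe. In these 2 groups, gastric first, the second Fdft1 probe read only 0.23 to 0.68 and 0.32 to 0.43. The second RefSeq probe of Hmgcs1 spread from -0.44 to 3.01 and -0.57 to 1.03, and 1 RefSeq probe of Lss from 0.27 to 1.95 and 0.10 to 0.92. The values that follow are of the brightest probes. In Nrf2-null gastric reflux the ratios of Fdps were 0.62, 2.71 and 2.61, those of Fdft1 0.52, 2.32 and 2.26, those of Sqle -0.51, 1.36 and 1.37, and those of Cyp51 -0.06, 2.54 and 2.63. Replicate 1 was the low one for all 4. In Nrf2-null duodenal reflux replicate 2 was low, with ratios of 1.62, -0.02 and 1.67 for Fdps, 1.44, 0.43 and 1.34 for Fdft1, 1.05, 0.40 and 1.01 for Sqle and 2.06, 0.51 and 1.99 for Cyp51. Both were the arrays of low median Cy5 intensity in those groups. Their squamous epithelium lists stood at 5.74 and 5.89, above the 4.60 to 5.39 of the other 22 arrays. The part of either in these levels was not tested.

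Without replicate 2, duodenal reflux against none in Nrf2-null mice moved from -0.96 to -0.41 for Fdps, from -0.93 to -0.61 for Fdft1, from -0.58 to -0.37 for Sqle and from -0.51 to -0.01 for Cyp51, while Idi2 moved from 2.18 to 2.02 and Hmgcs1 from -0.88 to -0.83. For gastric reflux in Nrf2-null mice against the wild type, leaving out replicate 1 moved Fdps from 0.44 to 1.12, Cyp51 from 0.32 to 1.20, Sqle from -0.21 to 0.41 and Fdft1 from -0.13 to 0.46. Leaving out the Xist-bearing replicate 2 instead gave 0.08 for Fdps, -0.10 for Cyp51, -0.52 for Sqle and -0.44 for Fdft1. The gastric values of these enzymes thus changed sign or size with 1 array.

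In the wild type these enzymes lay closer together. Fdps, which makes farnesyl diphosphate, had ratios of 1.91, 1.98 and 1.97 with duodenal reflux and 1.69 on the single measured array without reflux. For Cyp51 they were 2.05, 2.18 and 2.21 with duodenal reflux and 1.70, 1.91 and 1.54 without, which did not overlap, and the difference was 0.43 ± 0.52. Sqle, a rate-limiting oxidase of the later pathway, had 1.38, 1.31 and 1.45 with duodenal reflux against 0.94 without, and Fdft1, the squalene synthase, 1.95, 1.71 and 1.81 against 1.81. Large errors go with the wide spread of the 2 Nrf2-null groups, since the model pools the spread of a gene over all groups.

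Nrf2-null mixed reflux had the highest group mean of Fdps (2.32), Sqle (1.47), Cyp51 (2.29), Idi1 and Idi2 among the 8 groups, but for Fdps, Sqle and Cyp51 the difference from Nrf2-null mice without reflux was 0.26 ± 0.67, 0.07 ± 0.53 and 0.26 ± 0.74. Of the 7 enzymes other than Idi2, 6 had a positive difference between the genotypes with mixed reflux, and 6 a negative one with duodenal reflux. The exceptions were Lss in the first and Idi1 in the second, and both depended on the probe. On a RefSeq probe Lss gave 0.14 with mixed reflux, and the other Idi1 probe had means of 0.74 in Nrf2-null and 1.49 in wild-type duodenal reflux. Without replicate 2 of Nrf2-null duodenal reflux the duodenal differences between genotypes moved to -0.35 for Sqle, -0.31 for Fdps, -0.44 for Fdft1 and -0.12 for Cyp51. The signs with mixed reflux depended on the processing. Of the 8 enzymes only Idi1 and Idi2 kept theirs under every alternative run, and the others in at least 16 of 19. The lowest values reached -2.78 for Cyp51, -2.22 for Fdps and -1.66 for Sqle. With duodenal reflux all but Fdps and Idi1 kept their sign.

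Lss, the cyclase that makes lanosterol, was represented by its brightest probe, and that probe lay near the reference level, at -1.17 to 0.67. In wild-type gastric reflux its ratios were -0.45, -0.86 and -1.17, below the 0.31, 0.26 and 0.18 of Nrf2-null gastric reflux, a difference of 1.08 ± 0.21. Its other probes, both designed on the RefSeq mRNA, correlated at 0.88 with each other but at 0.31 and 0.09 with the brightest one over 24 arrays. On the brighter of these 2 the gastric difference between genotypes was 0.02 ± 0.23, and duodenal reflux against none in Nrf2-null mice was -0.995 ± 0.228 in place of -0.38 ± 0.21. That probe read 1.00, 0.84 and 0.88 in Nrf2-null duodenal reflux and 2.10, 1.94 and 1.66 without reflux, which did not overlap.

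Other enzymes had a probe that went its own way too. The Fdps probe designed on a cDNA clone correlated at -0.74 with the RefSeq probe over 22 arrays, with group means from -0.13 in Nrf2-null mixed reflux to 2.44 in wild-type mixed reflux. The Hmgcs1 probe on a cDNA clone correlated at -0.47 and 0.00 with the RefSeq probes, and its lowest mean was -1.46, in Nrf2-null mixed reflux. By contrast the 3 Cyp51 probes, all on the RefSeq mRNA, correlated at 0.90 to 0.95, the 2 Idi1 probes at 0.53 and the 2 Fdft1 probes at 0.58. Idi2 has no second probe against which to set its values.

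**Figure D3:**
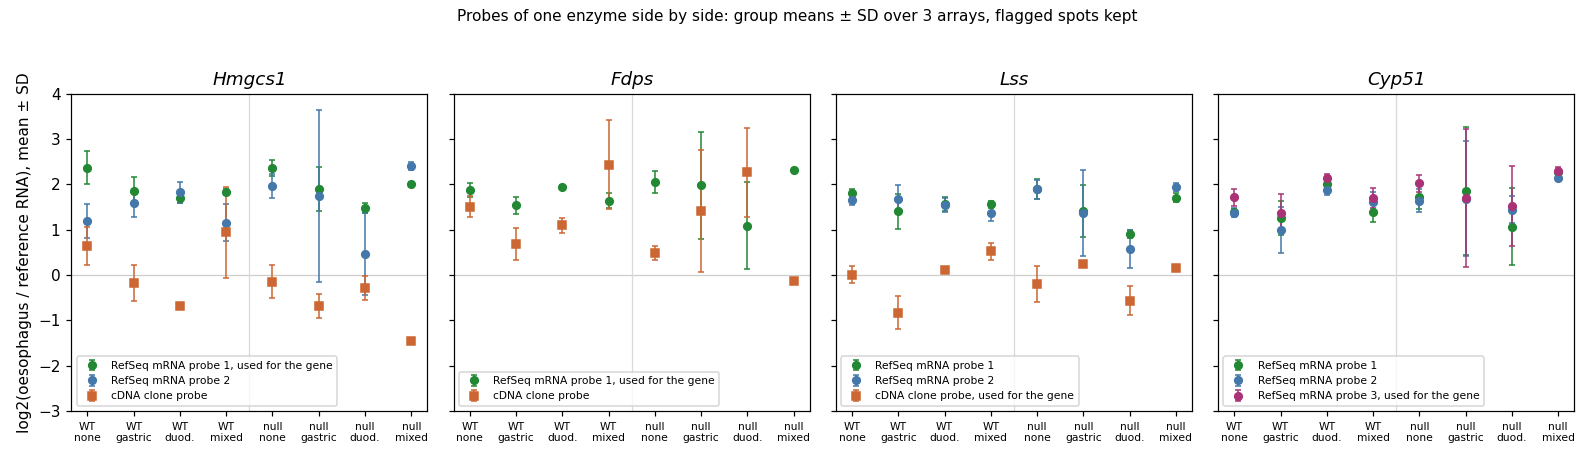
Group means ± SD over 3 arrays of the log2 ratio (y axis) in the 8 groups (x axis) for each probe of Hmgcs1, Fdps, Lss and Cyp51, with flagged spots kept. The 3 Cyp51 probes keep close together, while the probes on cDNA clones (orange squares) of Hmgcs1, Fdps and Lss order the groups differently from the RefSeq probes.

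Across samples the later enzymes went together, and the values for Idi2 were lower. Pearson's r was 0.91 between Sqle and Cyp51, 0.91 between Fdps and Cyp51, 0.90 between Fdps and Fdft1, 0.85 between Sqle and Fdft1 and 0.79 between Hmgcs1 and Fdft1, over 20 samples. After group means were taken out these were 0.94, 0.98, 0.93, 0.97 and 0.86, so the pairs varied together within groups, where the 2 low arrays weigh most. Idi2 correlated at -0.43 with Hmgcs1, 0.01 with Fdps and 0.51 with Idi1, the lowest and the highest of its 7 pairs being the first and the last. Lss, by its brightest probe, which was designed on a cDNA clone, correlated at 0.04 to 0.31 with the other 7. That probe correlated at only 0.31 and 0.09 with the RefSeq probes of Lss, and those were not set against the other enzymes. All points share the reference RNA, and arrays share slides, so these values describe the arrays only.

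**Figure D4:**
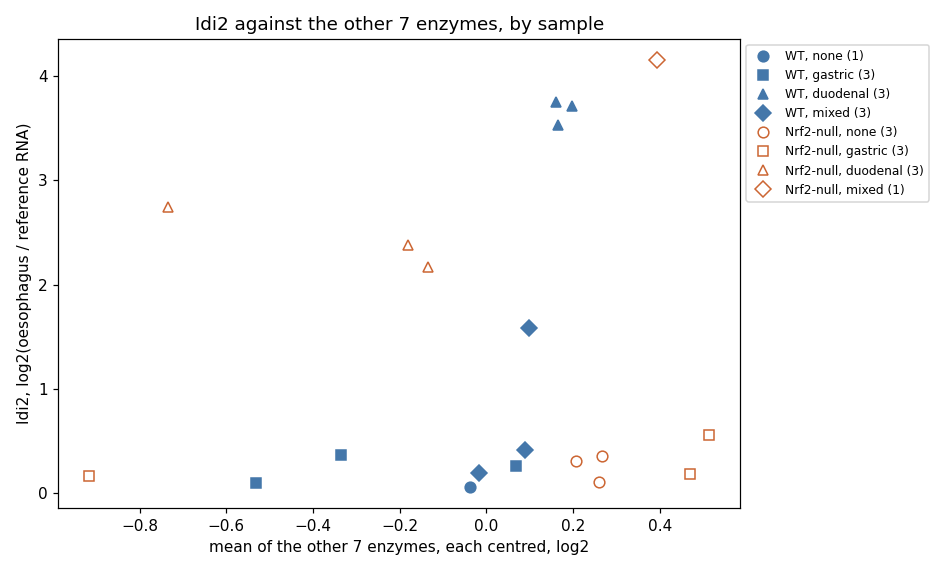
Log2 ratio of Idi2 (y axis) against the mean of the other 7 enzymes, each centred on its own mean (x axis), for the 20 samples in which all 7 were measured; filled blue, wild type, and open orange, Nrf2-null. Samples with Idi2 above 2 span the x axis from -0.73 to 0.39, and those below 2 from -0.92 to 0.51.

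At an adjusted p under 0.05, duodenal reflux in the wild type called 1 of the 8 enzymes higher and 0 lower (Idi2), where 7.26% of all genes were called higher and 3.05% lower, 10.3% together. In Nrf2-null mice it called 1 higher (Idi2) and 1 lower (Hmgcs1), beside 13.5% and 6.33%, 19.8% together. Mixed reflux in Nrf2-null mice called 1 higher (Idi2) and 0 lower, beside 3.45% and 1.32%, 4.77% together, and in the wild type 0 and 0, beside 0.0439% and 0.00975%, 0.0536% together. Gastric reflux called 0 higher and 1 lower (Lss) in the wild type, beside 3.06% and 1.06%, 4.11% together, and 0 and 0 in Nrf2-null mice, beside 0.439% and 0.146%, 0.585% together. Between genotypes the counts were 0 and 0 without reflux, beside 0.0877% and 0.0829%, 0.171% together, and 1 higher (Lss) and 0 lower with gastric reflux, beside 10.5% and 7.17%, 17.7% together. They were 0 higher and 1 lower (Idi2) with duodenal reflux, beside 1.2% and 0.692%, 1.89% together, and 1 higher (Idi2) and 0 lower with mixed reflux, beside 2.29% and 1.17%, 3.46% together. The enzymes were picked on these contrasts, and nothing is read from the counts.

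The other 14 genes of the pathway were all tested, with p-values from limma adjusted by the Benjamini-Hochberg method over all genes. With duodenal reflux in the wild type 2 of 14 rose and 0 fell, where 7.26% and 3.05% of all genes did: Pmvk, the phosphomevalonate kinase, by 1.14 ± 0.23 (adjusted p = 0.00659) and Acat2, the acetyl-CoA acetyltransferase, by 0.69 ± 0.17 (adjusted p = 0.0172). In Nrf2-null mice, beside 13.5% and 6.33% of all genes, Pmvk rose by 0.56 ± 0.16 (adjusted p = 0.0263) and Hsd17b7, a sterol ketoreductase, fell by 1.34 ± 0.44 (adjusted p = 0.0437). Median differences of the 14 were 0.14 and -0.21, beside 0.08 and 0.08 over all genes. Pmvk read 2.22, 2.20 and 2.41 in wild-type duodenal reflux and 1.13 on the single array measured without reflux.

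Mixed reflux in either genotype and gastric reflux in either genotype called 0 of the 14. Between genotypes, 3 of 14 were higher in Nrf2-null mice with gastric reflux, namely Nsdhl (0.80 ± 0.21, adjusted p = 0.0187), Pmvk (0.71 ± 0.16, adjusted p = 0.0117) and Acat2 (0.67 ± 0.17, adjusted p = 0.0161), and Hsd17b7 was lower (-1.89 ± 0.44, adjusted p = 0.0123). Over all genes 10.5% were higher and 7.17% lower. In the other 3 conditions 0 of 14 were called. The median with gastric reflux was 0.36, beside 0.11 over all genes.

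These gastric and wild-type duodenal comparisons cross scan days. With the day as a block, 0 of 14 were called in either. Hsd17b7 turned from -1.89 to 0.10 in the gastric one, while Nsdhl was 0.65 (adjusted p = 0.791), Acat2 0.64 (adjusted p = 0.786) and Pmvk 0.54 (adjusted p = 0.789). In the wild-type duodenal one Pmvk was 0.98 (adjusted p = 0.854) and Acat2 0.64 (adjusted p = 0.9999). In Nrf2-null duodenal reflux the block gave 0.45 for Pmvk (adjusted p = 0.343) and -0.01 for Hsd17b7 (adjusted p = 0.99). Hsd17b7 read 2.17 to 3.24 on the 8 arrays of days 1 and 2 and 0.53 to 1.85 on the 16 of day 3, with no overlap, also within Nrf2-null mice without reflux (2.76 and 2.61 against 0.69). Single arrays decided some of these calls too. The gastric count of 4 was 1 without wild-type gastric replicate 2, 2 without wild-type gastric replicate 3 and 2 without Nrf2-null gastric replicate 2. The Nrf2-null duodenal count of 2 was 0 without replicate 1 or replicate 2 of the Nrf2-null mice without reflux and 1 without any 1 array of duodenal reflux. In the wild type the duodenal count of 2 was 1 without replicate 2 or 3 of either group. Day and group cannot be told apart where a group was read on 1 day only. Only Nrf2-null mice without reflux were read on both day 2 and day 3, with 1 array on day 3. Here and below, a day block that spans these days rests on that array. A gene that does not pass with it is therefore not shown to be unchanged.

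Of 12 sterol regulators and uptake genes, 2 were lower in Nrf2-null gastric reflux than in the wild type and 0 higher, beside 7.17% and 10.5% of all genes. Between the genotypes 0 were called without reflux or with duodenal reflux, beside 0.171% and 1.89% of all genes. Stard4, a carrier of cholesterol in the cytosol, was lower with duodenal reflux in the wild type (-2.16 ± 0.52, adjusted p = 0.0136) and in Nrf2-null gastric reflux against the wild type (-1.79 ± 0.52, adjusted p = 0.0266). It read 0.60 to 1.88 on scan days 1 and 2 and -1.42 to 0.20 on day 3, and with the day as a block the differences were 0.51 and 0.45. Insig2, which retains the SREBP complex in the endoplasmic reticulum, was 0.64 ± 0.19 lower in the gastric comparison (adjusted p = 0.0293), and -0.89 with an adjusted p of 0.786 with the day as a block. SREBP2's own gene Srebf2 and the feedback gene Insig1 were called in none of the 10 comparisons, with differences of -0.29 to 0.30 and -0.42 to 0.66.

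**Figure D5:**
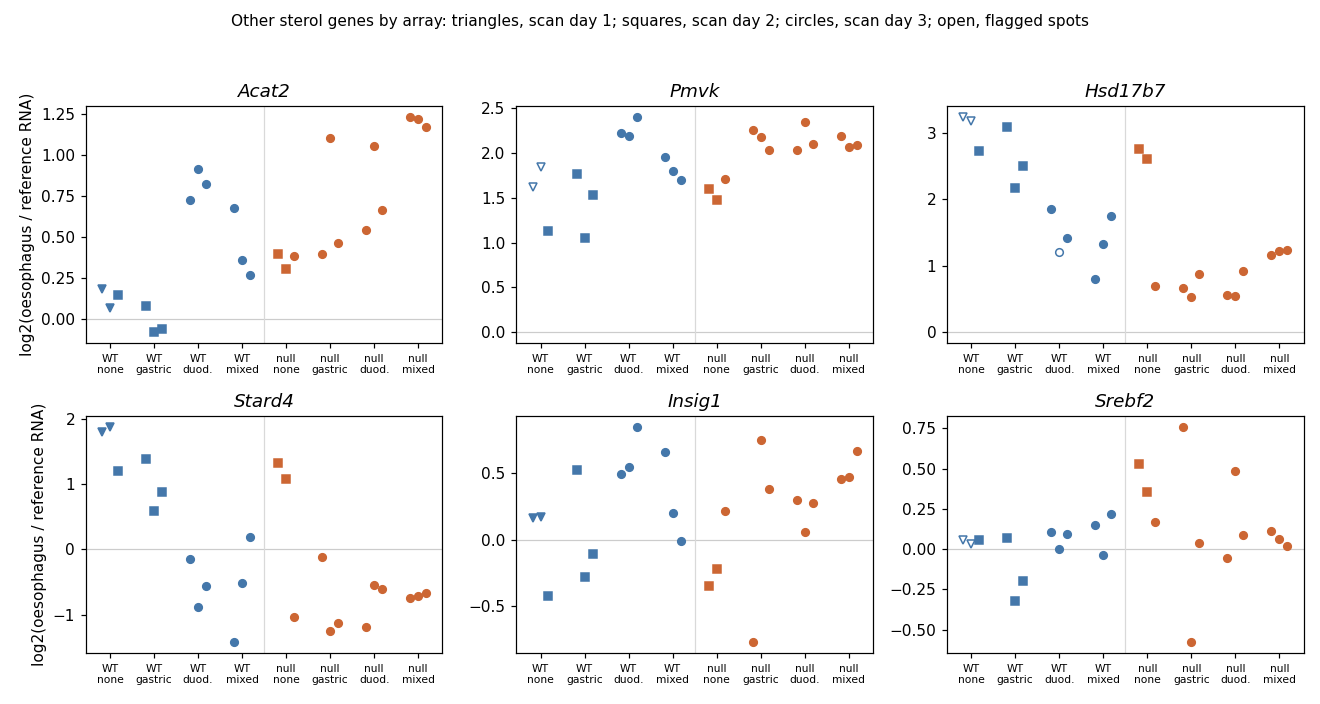
Log2 ratio (y axis, own scale in each panel) of 6 other sterol genes by array in the 8 groups (x axis), with the scan day as the symbol. Stard4 and Hsd17b7 separate scan day 3 from days 1 and 2, with Stard4 at most 0.20 on day 3 and at least 0.60 before it; open points are spots marked as outliers.

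Of 9 sterol export and storage genes, 3 rose and 1 fell with duodenal reflux in the wild type, beside 7.26% and 3.05% of all genes: Soat1, which esterifies cholesterol (1.64 ± 0.34, adjusted p = 0.00597), Ch25h, a cholesterol hydroxylase (1.09 ± 0.28, adjusted p = 0.0204), Nr1h3, which encodes the sterol receptor LXR-alpha (0.81 ± 0.23, adjusted p = 0.0342), and, lower, the exporter Abca1 (-0.75 ± 0.23, adjusted p = 0.0485). In Nrf2-null mice 3 rose and 2 fell, beside 13.5% and 6.33% of all genes, the same 4 genes in the same directions and Nr1h2 lower (-0.46 ± 0.14, adjusted p = 0.0284). Medians of the 9 were 0.30 and -0.37, beside 0.08 and 0.08 over all genes. With the scan day as a block none of these genes was called, but the block rests on 1 array, as said above, so this decides little. Differences in the wild type were 0.80 for Soat1, 0.80 for Ch25h, 0.48 for Nr1h3 and -1.03 for Abca1 (adjusted p = 0.9999 for all 4). In Nrf2-null mice the block gave 1.18 for Soat1, 0.85 for Ch25h, 0.81 for Nr1h3, -1.11 for Abca1 and -0.25 for Nr1h2 (adjusted p-values of 0.0762 to 0.535). With mixed reflux 0 of 9 were called in either genotype, and with gastric reflux Nr1h3 rose in the wild type (1.11 ± 0.23, adjusted p = 0.0241, and 0.76 with an adjusted p of 0.387 with the day as a block). Between genotypes Ch25h was higher in Nrf2-null gastric reflux (0.91 ± 0.28, adjusted p = 0.0346), and 0.64 with the day as a block (adjusted p = 0.84), and it was called in 11 of the 18 alternatives run.

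Of 11 genes of fatty acid synthesis, which share SREBP regulation with the sterol enzymes, 4 fell and 0 rose with duodenal reflux in Nrf2-null mice, beside 6.33% and 13.5% of all genes, and the median was -0.54: Elovl6 by 1.68 ± 0.21 (adjusted p = 9.8e-05), Acaca by 1.03 ± 0.20 (adjusted p = 0.00228), Fads1 by 0.83 ± 0.19 (adjusted p = 0.006) and Acly by 0.62 ± 0.15 (adjusted p = 0.0102). With the scan day as a block only Elovl6 of these 4 passed (-1.52, adjusted p = 0.0163), while Fads1 was -1.02 (adjusted p = 0.0642), Acaca -0.59 and Acly -0.36. In the wild type, where the median was -0.03, Elovl6 (-0.99 ± 0.29, adjusted p = 0.0406) and Fads2 (-0.67 ± 0.16, adjusted p = 0.0153) fell and Acss2 rose, by 0.65 ± 0.17 (adjusted p = 0.0221), and none of the 3 passed with the block, which gave -0.76, -0.71 and 0.64. Scd2, a desaturase, went opposite ways between the genotypes, as Idi2 did: -0.99 ± 0.21 with duodenal reflux (adjusted p = 0.0247) and 1.22 ± 0.29 with mixed reflux, where Nrf2-null mice count as 1 sample. Both comparisons lie within scan day 3, so the day as a block could not move these differences. With the slide as a block they were -1.93 and 0.59. Over all alternatives run they were called in 13 of 20 and 13 of 19. Of 7 tested genes on the isoprenoid side branches, which draw on farnesyl diphosphate, Pdss1 rose with duodenal reflux in Nrf2-null mice (0.56 ± 0.14, adjusted p = 0.011) and Fntb was higher in Nrf2-null gastric reflux than in the wild type (0.93 ± 0.21, adjusted p = 0.00971), and none was called in the other 8 comparisons. With the day as a block Pdss1 was 0.68 (adjusted p = 0.0805) and Fntb 0.64 (adjusted p = 0.795), and with the slide as a block Pdss1 was 0.27 (adjusted p = 0.445).

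The pattern of Idi2 over 22 samples was most like that of Olfr822 (Pearson's r 0.97, Spearman's rho 0.85), Bfsp1 (0.96 and 0.85), Clec2e (0.95 and 0.74), Me2 (0.95 and 0.88) and Glycam1 (0.95 and 0.83) among 11468 named genes measured in all samples. Glyat, Syt16, Olfr1417, Plch1 and Krt33b completed the first 10, down to an r of 0.94. After group means were taken out r was 0.72, 0.79, 0.25, 0.80 and 0.65 for the first 5. None of the 10 is an enzyme of the pathway. The mean of the other 7 enzymes was most like Plpp2 (r 0.95), Epb41l5 (0.93) and Mob1a (0.91), and the lists of 10 for Idi2 and for the other enzymes shared 0 genes.

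Markers of other cells stand beside these levels. Skeletal muscle markers, the mean log2 ratio of 15 genes, were at 2.92 to 3.58 in the 3 groups with high Idi2 and 0.82 to 5.06 in the other 5. In those 5 groups, 4 arrays lay at 4.25 to 5.06, with Idi2 at 0.10, 0.36, 0.16 and 1.59. The remaining arrays of those groups lay at 0.82 to 2.98, with Idi2 low as well. The highest Idi2 array of wild-type mixed reflux, replicate 2, also had the highest adipocyte list of all arrays, 4.60 over 5 genes. Smooth muscle markers (8 genes) were at 1.00 to 2.30 in the 3 groups with high Idi2 and 1.92 to 3.31 in the other 5. Squamous epithelium markers (10 genes) were at 5.0 to 5.89 and 4.60 to 5.74, well above the reference throughout, and markers of proliferating cells (5 genes) at -1.58 to -1.05 and -2.37 to -1.38. Hepatocyte markers (6 genes), which the oesophagus should lack, were at 0.32 to 3.18 and -0.08 to 3.41. The part of these cells in the Idi2 levels was not tested beyond these values.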

How the data were processed

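Scanner output of 24 two-colour arrays was used. Per the file headers the spot intensities were read from the scans before they were deposited, with the Agilent Feature Extraction program, given as version 9.1 per the submitters' processing notes, whereas the file headers give later versions, one for slide 1 and another for the rest. The log10 ratios of processed signals, deposited in the same files, served as an alternative, as did the authors' deposited value table, whose values were read as log2 ratios from their slope on the scanner's ratio. How that table was normalized is unknown here. Mean intensities were corrected with normexp (offset 50), the array median stood in for outlier local backgrounds, and arrays were normalized by loess in limma 3.58.1 (R 4.3.3). Outlier spots were left out, and the brightest probe stood for a gene. Genes entered the test where some group had the Cy5 signal well above background on each of its arrays (20516 genes). limma fitted 1 mean per group over 22 samples (14 residual degrees of freedom), with Benjamini-Hochberg adjustment at 0.05, and its steps were tested on simulated data. The number of arrays limits the precision.

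The members and gene lists were chosen with earlier results of these data known. Named were all 8 members with every probe, up to 6 called genes per other list and comparison by size of difference, Insig1, Srebf2, Nfe2l2 and Nqo1, and the 10 genes with the highest Pearson correlation; some genes the rule takes in are not reported here. Nqo1, a target of Nrf2, was 2.99 lower in Nrf2-null mice without reflux. Macrophage markers lay between -0.09 and 2.25. Alternatives covered background, normalization, signal source, filters, probes, scan day, slide, pairing and replicates.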

Additional observations from a re-analysis of the deposited data

Results flagged for a closer look

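For 5 of the 8 enzymes the arrays of the genotypes did not overlap in several conditions and differed in opposite directions between them, Nrf2-null minus wild type. The same was found for 4860 of the 20516 tested genes (23.7%), and the enzymes were picked with these values in view, so nothing is read from their number. Idi2 was higher with mixed reflux (3.42) and lower with duodenal reflux (-1.23). Without reflux the Idi2 value was 0.32, a ratio of mean Cy5 levels of 1.155-fold, but the wild type was at background there. Sqle was lower with duodenal reflux (-0.56) and higher with mixed reflux (0.42), as were Fdps (-0.86 and 0.67) and Fdft1 (-0.75 and 0.18). Without Nrf2-null duodenal replicate 2, an array of low Cy5 intensity, the duodenal values were -0.35 for Sqle, -0.31 for Fdps and -0.44 for Fdft1. On its brightest probe Lss was higher with gastric reflux (1.08) and lower with duodenal (-0.68) and mixed reflux (-0.36), whereas a RefSeq probe gave 0.02, -0.66 and 0.14. The difference between conditions was not tested for any of them, and the mixed reflux group of Nrf2-null mice counts as 1 sample. The mixed reflux values of Sqle, Fdps, Fdft1 and Lss and the duodenal value of Fdps did not keep their sign under every alternative run.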

How the results depend on the processing

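Idi2 kept its sign under every alternative run for duodenal reflux in the wild type (2.78 to 4.93) and in Nrf2-null mice (1.78 to 3.63), for mixed reflux in Nrf2-null mice (3.47 to 4.40), and for the genotypes with duodenal (-1.89 to -0.51) and mixed reflux (3.05 to 3.85). Of all 8 enzymes, 6 kept their sign for the genotypes with duodenal reflux and 2 with mixed reflux. Median centring in place of loess moved the median of the other 14 pathway genes to 0.46 for the genotypes without reflux, 0.47 with mixed reflux and -0.54 for duodenal reflux in Nrf2-null mice. Local backgrounds as read gave 0.44 for duodenal and 0.39 for mixed reflux in the wild type, and the scan day as a block 0.48 for the former. With the scan day as a block, Hsd17b7 (0.10) and Stard4 (0.45) turned sign for the genotypes with gastric reflux and Stard4 (0.51) for duodenal reflux in the wild type. Pdss1 (-0.012, median centring) and Insig1 (-1.36, slide as a block) turned sign for duodenal reflux in Nrf2-null mice. The cause was not tested. Counts of all genes called ranged from 4 to 6395 for the genotypes with gastric reflux (3624 as reported), 33 to 5216 with duodenal (388), 245 to 4387 with mixed (710) and 10 to 3143 without reflux (35). For reflux against none they ranged from 13 to 4446 (duodenal, 2116), 8 to 3673 (gastric, 844) and 5 to 3131 (mixed, 11) in the wild type, and 167 to 7518 (4069), 2 to 3205 (120) and 61 to 5058 (978) in Nrf2-null mice. With the replicate block the median of the 14 was 0.10, 0.36 and -0.14 for the genotypes without, with gastric and with duodenal reflux, -0.19, 0.13 and 0.07 for gastric, duodenal and mixed reflux in the wild type, and -0.01 and -0.21 for gastric and duodenal reflux in Nrf2-null mice. Same-numbered arrays correlated at -0.463 to 0.373, so the numbers were not taken to pair them, and no such fit was made for the single sample of Nrf2-null mixed reflux. A slide block could not be fitted where it had to link wild-type groups without and with gastric reflux to the others. Leaving out arrays of low Cy5 intensity and taking RefSeq probes were chosen after seeing the data.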
